A study of Homo sapiens with 18 samples.

Results

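Interferon-stimulated effector genes encode the proteins that a cell makes after interferon signalling to block virus entry, replication and assembly. The 41 genes described here form a list given by name, from the IFIT, MX, GBP and TRIM families to ISG15 and its enzymes. The rule for membership names no measured value, but the list was chosen with earlier results of these data known. Each gene was represented by the probe set that carries its symbol alone and has the highest mean over all arrays. All 41 were measured, among 19775 genes tested.

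The cells were DU145 and CWR22Rv1, both established lines from human prostate cancer. They were transfected with Lipofectamine and harvested after 48 h. In each line 1 group received siRNA against Stat5a and Stat5b together, 1 group siRNA against Stat3 and 1 group a scramble siRNA, with 3 arrays a group and 18 in all (Affymetrix U133 Plus 2.0). The scramble groups were thus transfected too, and untransfected cells were not analysed here. The labels speak of triplicates with unpooled RNA and do not say whether these were separate cultures, so that p-values measure only how these samples spread, and that spread may be technical.

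In the textbook pathway, interferons bind paired receptors, the kinases JAK1 and TYK2 become active, and a transcription factor complex that holds IRF9 binds the interferon-stimulated response element (ISRE) in the promoters of effector genes. Other STAT dimers, those of STAT3 and STAT5 among them, bind a different short element, GAS. Many tumour cells keep some effector genes on without added interferon, and USP18, itself an effector gene, dampens the receptor's signal.

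Promoter windows of 250 bases before to 50 bases after a start site were taken from RefSeq (GRCh38.p14), and 35 of the 41 genes had an entry. The ISRE was searched on both strands as GAAA, then any 2 bases, then GAAA, and GAS as TTCNNNGAA, which reads the same on both strands. At least 1 ISRE stood in the windows of 27 of the 35 genes (77.1%), against 613 of 15384 genes of the array with an entry (3.98%). Counted by window it stood in 32 of their 49 windows (65.3%), against 3.57% of all 35116 windows. GAS was found for 10 of the 35 genes (28.6%), against 8.97% of the genes of the array. By window the shares were 24.5% of the 49 and 7.66% of all windows. Of 11 distinct GAS matches, 5 overlapped an ISRE match. The 35 genes held 45 distinct ISRE matches, and 13 genes had more than 1. The 8 genes without a match were CMPK2, HERC6, IFI16, IFI35, SAMD9L, SP110, UBE2L6 and XAF1. A match is a run of letters and not a measured binding site, and a missing match says only that these letters are not in the window.

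The following sequences are the 160 bases before a start site, 5′ to 3′ along the gene's strand, with every ISRE match in capitals. IFIT1 (chr10:89392463-89392622, plus strand), IFIT3 (second start site, chr10:89332369-89332528, plus strand), ISG15 (chr1:1013337-1013496, plus strand) and IFI27 (first start site, chr14:94110576-94110735, plus strand) stand for genes that rose with Stat5a/b siRNA in DU145. TRIM14 (chr9:98119223-98119382, minus strand) rose with either siRNA in both lines. IFI6 (chr1:27672193-27672352, minus strand) and BST2 (chr19:17405631-17405790, minus strand) were not called with Stat5a/b siRNA in DU145, and ISG20 (chr15:88638856-88639015, plus strand) fell. CMPK2 (first of 3 start sites, chr2:6866636-6866795, minus strand) had the largest rise among the 41 genes and no match.
IFIT1: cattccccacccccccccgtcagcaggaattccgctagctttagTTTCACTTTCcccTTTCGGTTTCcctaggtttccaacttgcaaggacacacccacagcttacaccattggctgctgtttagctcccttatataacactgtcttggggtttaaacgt
IFIT3: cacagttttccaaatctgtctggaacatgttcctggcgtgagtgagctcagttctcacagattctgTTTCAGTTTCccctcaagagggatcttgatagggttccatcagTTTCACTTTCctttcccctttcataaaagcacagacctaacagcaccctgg
ISG15: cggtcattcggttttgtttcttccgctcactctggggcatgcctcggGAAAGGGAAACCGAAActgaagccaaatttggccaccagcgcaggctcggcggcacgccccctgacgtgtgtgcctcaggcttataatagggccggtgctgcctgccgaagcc
IFI27: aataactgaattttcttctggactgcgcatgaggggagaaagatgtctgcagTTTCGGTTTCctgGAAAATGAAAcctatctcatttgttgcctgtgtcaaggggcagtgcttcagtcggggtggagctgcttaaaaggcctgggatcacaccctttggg
TRIM14: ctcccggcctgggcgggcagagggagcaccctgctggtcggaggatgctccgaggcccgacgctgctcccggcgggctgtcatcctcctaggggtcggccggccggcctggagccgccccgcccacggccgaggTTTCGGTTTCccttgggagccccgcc
IFI6: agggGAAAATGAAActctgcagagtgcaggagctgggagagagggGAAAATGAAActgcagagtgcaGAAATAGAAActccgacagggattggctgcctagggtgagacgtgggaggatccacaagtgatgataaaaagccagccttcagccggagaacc
BST2: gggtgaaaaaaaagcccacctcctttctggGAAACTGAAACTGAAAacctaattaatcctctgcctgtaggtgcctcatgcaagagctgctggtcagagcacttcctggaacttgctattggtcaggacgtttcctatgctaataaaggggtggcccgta
ISG20: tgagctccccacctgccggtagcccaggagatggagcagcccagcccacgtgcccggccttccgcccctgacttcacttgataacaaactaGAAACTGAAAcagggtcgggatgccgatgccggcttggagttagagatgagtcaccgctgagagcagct
CMPK2: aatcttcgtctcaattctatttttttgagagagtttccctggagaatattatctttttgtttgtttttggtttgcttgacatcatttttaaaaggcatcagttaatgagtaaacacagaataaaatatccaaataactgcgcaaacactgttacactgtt
With Stat5a/b siRNA in DU145, 20 of the 27 genes with an ISRE match were called higher and 1 lower, and of the 8 genes without one 5 were called higher and 0 lower, while 11.8% of all genes tested were called higher and 12.5% lower. IFI6 holds 3 matches in the window shown, and its change was 0.06 ± 0.38 on the log2 scale.

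Values below are RMA log2 expression values, listed for replicates 1, 2 and 3. A log2 change is the difference of 2 group means from a limma fit over all 18 arrays, and ± after it is the standard error of that fit. A gene was called when its two-sided p, adjusted by Benjamini-Hochberg over all 19775 genes, was under 0.05. Levels of different probe sets are not set against each other. These are bulk samples, so that fewer cells expressing a gene and less of its RNA per cell cannot be told apart.

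The targeted genes were checked first. In DU145 STAT5B stood at 39.1% of the scramble level with Stat5a/b siRNA (-1.36 ± 0.09, limma adjusted p = 3.4e-08) and STAT3 at 32.6% with Stat3 siRNA (-1.62 ± 0.09, adjusted p = 1.1e-08). In CWR22Rv1 these levels were 53.4% for STAT5B and 45.7% for STAT3. STAT5A was not called with Stat5a/b siRNA (-0.30 ± 0.13 in DU145 and -0.34 ± 0.13 in CWR22Rv1). In the group means the epithelial keratin KRT8 lay between 10.08 and 11.01, KRT18 between 12.57 and 13.07, and the leukocyte gene PTPRC between 2.96 and 3.16. Of 4 epithelial markers, 2 were called lower with either siRNA in DU145. CDH1 averaged 8.92 with Stat5a/b siRNA and 9.11 with Stat3 siRNA, against 10.10 with scramble, and EPCAM 10.75 and 10.66, against 11.15. Of 5 leukocyte markers CD14 was called lower with either siRNA (5.16 and 5.02, against 6.12), and so was COL1A1 of 5 fibroblast markers (6.81 and 5.94, against 7.18). Averaged over the markers of a list, the DU145 arrays lay between 10.89 and 10.93 with Stat5a/b siRNA, 10.76 and 10.92 with Stat3 siRNA and 11.29 and 11.36 with scramble for the epithelial list. For the leukocyte list these ranges were 4.09 to 4.47, 4.21 to 4.36 and 4.37 to 4.53. In CWR22Rv1 CDH1 averaged 12.05 and 12.01, against 11.83 with scramble, EPCAM 11.59 and 11.54, against 11.68, and CD14 4.26 and 4.29, against 4.31, none of them called. COL1A1 averaged 8.29 and 7.71, against 7.85, and was called higher there with Stat5a/b siRNA (0.45 ± 0.11, limma adjusted p = 0.019). The plasmacytoid dendritic cell marker TCF4 was called lower with Stat5a/b siRNA (-0.72 ± 0.16). The fibroblast marker LUM was called lower with Stat3 siRNA (-0.66 ± 0.18). The part of these differences in the results was not tested.

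The replicate 3 arrays of DU145 lay low for the effector genes. Among the 3 arrays of a group, replicate 3 was the lowest for 38 of 41 effector genes with Stat5a/b siRNA, 34 with Stat3 siRNA and 21 with scramble, while over all genes it was the lowest for 44.4%, 29.0% and 32.1%. As a mean over the 41 genes, set against the scramble mean of DU145, the Stat5a/b arrays stood at 0.91, 0.90 and 0.46, the Stat3 arrays at -0.08, -0.04 and -0.40, and the scramble arrays at 0.02, 0.08 and -0.10. The difference between the 3′ and 5′ GAPDH control probe sets, a sign of RNA quality, was 0.051, 0.072 and 0.041 on those 3 arrays and between 0.115 and 0.153 on the other DU145 arrays. The same difference for ACTB was 0.619, 0.539 and 0.454 on the 3 arrays, against 0.517 to 0.625 on the others, so that the scramble array alone lay outside that range. The part of these measures in the results was not tested. Counts of called effector genes in comparisons of DU145 arrays are also given without these 3 arrays. How many of all genes were then called is given for each siRNA against scramble in DU145, and not for other comparisons.

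**Figure D1:**
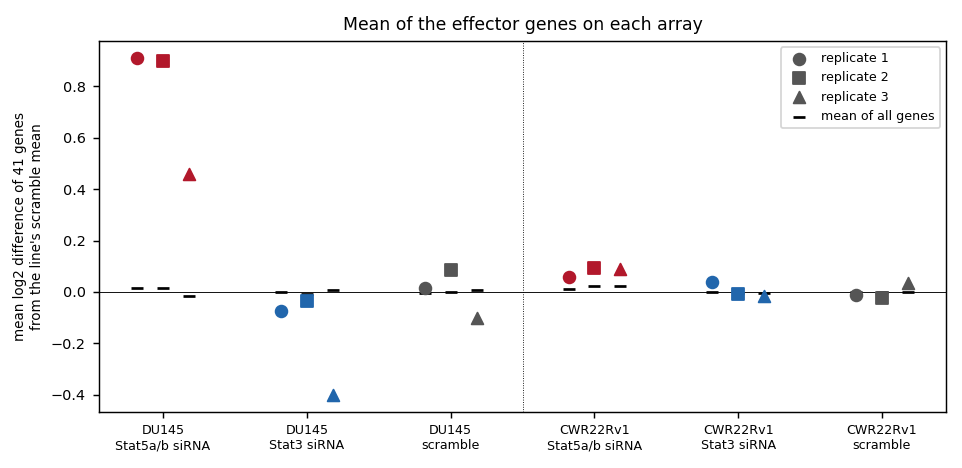
Mean over the 41 effector genes on each of the 18 arrays, as a log2 difference from the scramble mean of the same cell line, with the mean of all 19775 genes as dashes. The DU145 Stat5a/b arrays lie at 0.91, 0.90 and 0.46, and every CWR22Rv1 array lies between -0.02 and 0.09.

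Most of the effector genes were higher with Stat5a/b siRNA than with scramble in DU145. Of the 41, 30 were called higher and 2 lower, while 11.8% of all genes were called higher and 12.5% lower. The median log2 change was 0.70 over the 41 genes and 0.01 over all genes. CMPK2, IFI27, MX1, IFIT2 and XAF1 had the largest rises, and 13 genes rose at least 2-fold. On 31 genes all siRNA arrays lay above all scramble arrays, and on 2 they lay below, against 16.6% and 17.8% of all genes. Without the replicate 3 arrays of DU145, 31 genes were called higher, 29 of them among the 30, and 2 lower. In that setting 2718 of all 19775 genes were called higher and 2488 lower. The calls of 26 of the 32 genes held under every alternative that tested them; those of SAMD9, SAMD9L, HERC5, PARP14, TRIM21 and TRIM22 did not.

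**Figure D2:**
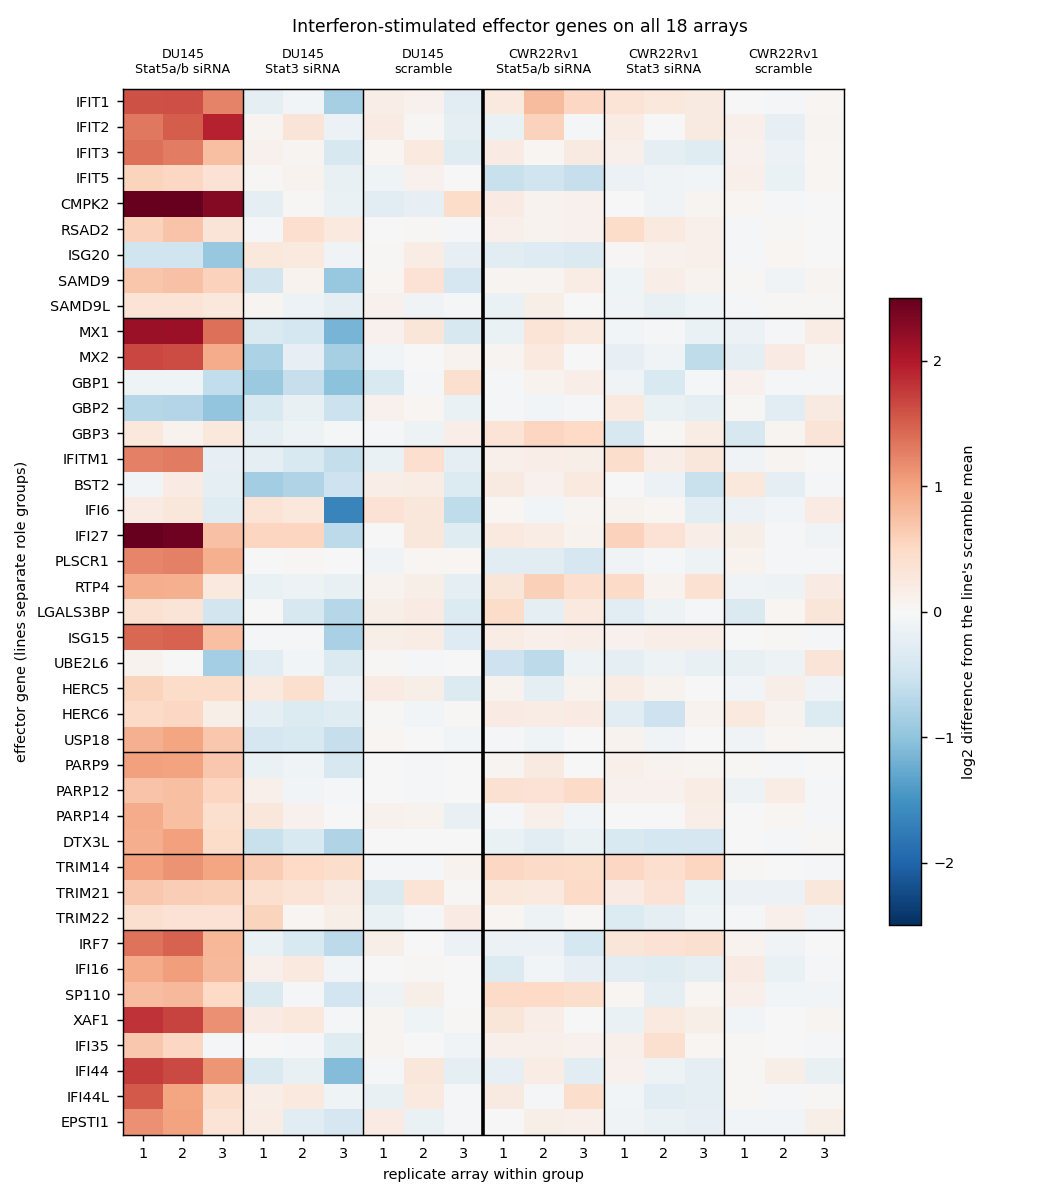
Log2 difference of each effector gene from the scramble mean of its cell line, on every array. Columns are the 3 arrays of the 6 groups and horizontal lines part the role groups. The DU145 Stat5a/b columns hold most of the red, with replicate 3 paler than replicates 1 and 2, and ISG20 and GBP2 are blue there.

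Among proteins that act on nucleotides and RNA, 8 of 9 rose and 1 fell. CMPK2, a mitochondrial nucleotide kinase, read 6.71, 6.82 and 6.51 with Stat5a/b siRNA, against 3.94, 4.01 and 4.68 with scramble. The groups lay far apart, and the change of 2.47 ± 0.14 (5.53-fold, limma adjusted p = 9.8e-09) was the largest among all 19775 genes. IFIT1, which binds foreign RNA caps, read 10.91, 10.93 and 10.56 with the siRNA, against 9.49, 9.44 and 9.03 with scramble. IFIT2, its relative, read 9.04, 9.24 and 9.65, against 7.93, 7.76 and 7.47. Neither group overlapped its control, and the changes were 1.48 ± 0.18 (adjusted p = 1.6e-05) and 1.59 ± 0.19 (adjusted p = 1.7e-05). On IFIT2, unlike the other members of the family, replicate 3 was the highest siRNA array. IFIT3, which stabilises IFIT1, rose by 1.14 ± 0.18 and IFIT5, another RNA-binding member, by 0.48 ± 0.09 (a second IFIT5 probe set gave 0.37 and was not called). RSAD2, the radical-SAM enzyme viperin, rose by 0.54 ± 0.11, and the antiviral growth suppressors SAMD9 and SAMD9L by 0.66 ± 0.20 and 0.32 ± 0.08. ISG20, an exonuclease that degrades viral RNA, went the other way, with 7.82, 7.81 and 7.38 with the siRNA, against 8.34, 8.50 and 8.10 with scramble. The arrays did not overlap (-0.64 ± 0.12, adjusted p = 0.00089), and a second ISG20 probe set changed by -0.56 ± 0.12.

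The GTPases split. MX1, a dynamin-like GTPase that traps viral nucleocapsids, read 11.07, 11.05 and 10.29 with Stat5a/b siRNA, against 9.01, 9.21 and 8.51 with scramble. MX2, its paralogue active against HIV, read 6.87, 6.84 and 6.13, against 5.14, 5.18 and 5.28. Both stood above every scramble array, with changes of 1.89 ± 0.23 (limma adjusted p = 2.2e-05) and 1.41 ± 0.20 (adjusted p = 7.8e-05). GBP2, a guanylate-binding protein that attacks vacuoles of intracellular pathogens, read 5.96, 5.93 and 5.68, against 6.78, 6.71 and 6.51 with scramble. It fell by 0.81 on the log2 scale (SE 0.14, adjusted p = 0.00042) with no overlap. GBP1 and GBP3, of the same family, were not called (-0.28 ± 0.18 and 0.20 ± 0.16). On other GBP1 probe sets the changes were -0.51 ± 0.15 and -0.48 ± 0.15, both called lower with p adjusted over all probe sets, and a further one gave -0.23 ± 0.10 and was not called.

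Of 7 membrane-bound and secreted proteins, 3 rose and 4 were not called. PLSCR1, a phospholipid scramblase that limits virus entry, read 11.48, 11.51 and 11.14 with Stat5a/b siRNA, against 10.17, 10.30 and 10.31 with scramble. With little spread in either group the change was 1.12 ± 0.08 (limma adjusted p = 1.3e-07). IFI27, a mitochondrial membrane protein, read 9.02, 8.79 and 7.10, against 6.37, 6.66 and 6.07. It was the most spread of the risen genes, with an SD of 1.05 over the 3 siRNA arrays, and its change was 1.94 ± 0.38 (adjusted p = 0.0014). RTP4, a chaperone of receptors, read 4.78, 4.76 and 4.11, against 3.96, 4.02 and 3.64, a change of 0.68 ± 0.16. IFITM1, which blocks membrane fusion, was high on replicates 1 and 2 only (7.41, 7.47 and 5.96 with the siRNA, against 5.99, 6.59 and 5.91 with scramble) and was not called (0.78 ± 0.28, adjusted p = 0.055). BST2 or tetherin, which holds virions on the cell surface, changed by -0.03 ± 0.17, IFI6 of the endoplasmic reticulum by 0.06 ± 0.38 and the secreted LGALS3BP by 0.08 ± 0.24, all 3 uncalled.

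ISG15 conjugation tags proteins with a ubiquitin-like modifier. The modifier ISG15 read 12.52, 12.55 and 11.84 with Stat5a/b siRNA, against 11.23, 11.26 and 10.75 with scramble, a change of 1.23 ± 0.20 (limma adjusted p = 0.00029). USP18, which removes ISG15 and restrains the interferon receptor, read 9.50, 9.60 and 9.27, against 8.65, 8.62 and 8.55. All siRNA arrays of both genes exceeded all scramble arrays, and USP18 rose by 0.85 ± 0.08 (adjusted p = 1.7e-06). The ligase HERC5 read 8.96, 8.87 and 8.86, against 8.61, 8.55 and 8.06, a change of 0.49 ± 0.15 (adjusted p = 0.022). Its relative HERC6 was not called (0.38 ± 0.15, adjusted p = 0.07), although its arrays did not overlap, and neither was UBE2L6, the conjugating enzyme (-0.25 ± 0.20).

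All 4 genes of the ADP-ribosylation group rose. PARP9 and its partner DTX3L, a ubiquitin ligase, form a complex that enhances interferon signalling. PARP9 read 7.75, 7.71 and 7.39 with Stat5a/b siRNA, against 6.73, 6.69 and 6.73 with scramble, and DTX3L 9.09, 9.22 and 8.64, against 8.17, 8.18 and 8.19. The scramble arrays lay close together, with SDs of 0.03 and 0.01, and the changes were 0.90 ± 0.09 (limma adjusted p = 3.5e-06) and 0.80 ± 0.11 (adjusted p = 8.2e-05). PARP12, which adds single ADP-ribose units and acts on virus translation, read 8.47, 8.51 and 8.29, against 7.77, 7.73 and 7.77 (0.67 ± 0.08). PARP14, a further mono-ADP-ribosyltransferase, changed by 0.69 ± 0.12, while a second probe set gave -0.14 ± 0.12 and was not called.

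All 3 TRIM genes were called higher, TRIM22 at a very low level. TRIM14, an adaptor of the RNA-sensing pathway, read 9.90, 10.00 and 9.86 with Stat5a/b siRNA, against 8.84, 8.82 and 8.95 with scramble. The groups lay well apart, and the change was 1.05 ± 0.06 (limma adjusted p = 1.3e-08). TRIM21, a cytosolic antibody receptor, read 7.37, 7.32 and 7.30, against 6.34, 7.04 and 6.72 (0.63 ± 0.16). TRIM22 read 2.85, 2.82 and 2.82, against 2.29, 2.41 and 2.67 (0.38 ± 0.12, adjusted p = 0.032). With scramble TRIM22 stood at percentile 1.9 of all genes in DU145, and its distance to background is unknown. The call of TRIM22 held in 7 of 14 alternatives and that of TRIM21 in 13 of 14.

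Nuclear and other effector proteins rose in 7 of 8 cases. IRF7, the transcription factor that drives interferon alpha genes, read 9.52, 9.64 and 8.998 with Stat5a/b siRNA, against 8.31, 8.16 and 8.03 with scramble (1.22 ± 0.15, limma adjusted p = 1.8e-05). XAF1, a pro-apoptotic partner of XIAP, read 5.75, 5.64 and 5.09, against 4.02, 3.84 and 3.98 (1.54 ± 0.15, adjusted p = 1.7e-06). The nuclear DNA sensor IFI16 read 7.58, 7.70 and 7.46, against 6.63, 6.68 and 6.64 (0.93 ± 0.10, adjusted p = 5.1e-06). None of these 3 overlapped with scramble. Other XAF1 probe sets gave 0.60 ± 0.10 and 0.07 ± 0.11. IFI44 and IFI44L, which curb virus replication, changed by 1.50 ± 0.22 and 1.00 ± 0.20, EPSTI1 by 0.83 ± 0.17 and the nuclear body protein SP110 by 0.70 ± 0.12. IFI35 was not called (0.38 ± 0.14, adjusted p = 0.058). Of 31 further probe sets of 19 effector genes, 16 were called higher and 4 lower in this comparison, and 23 had a positive change. For genes with a called probe set in use, 0 further probe sets were called in the opposite direction. Uncalled ones could differ in sign, as the second PARP14 probe set did.

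**Figure D3:**
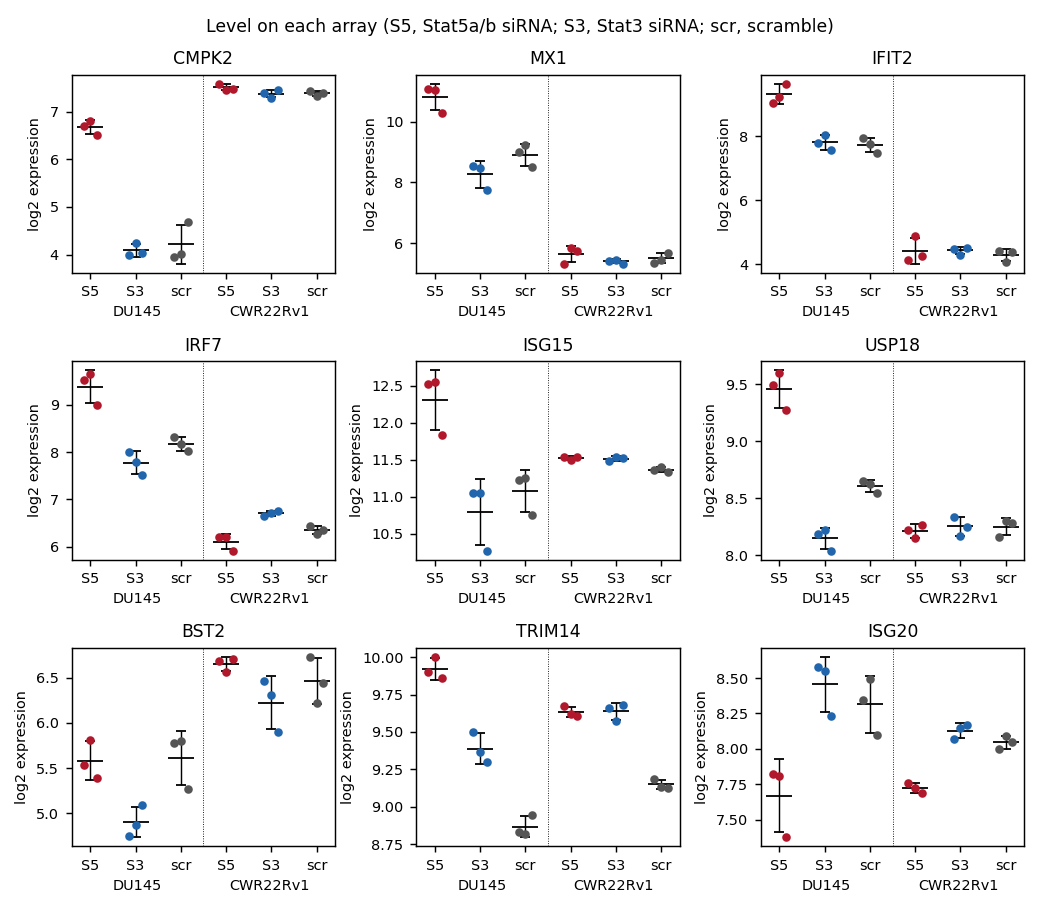
Log2 expression of 9 effector genes on each array (points), with the group mean and SD (bars, n = 3), for Stat5a/b siRNA (S5), Stat3 siRNA (S3) and scramble (scr). CMPK2, MX1, IFIT2, IRF7, ISG15 and USP18 are high in the Stat5a/b group of DU145, BST2 is low in its Stat3 group, TRIM14 is above scramble with either siRNA in both lines, and ISG20 is low with Stat5a/b siRNA in DU145.

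With Stat3 siRNA in DU145, TRIM14 was called higher and 5 genes lower (GBP1, BST2, MX2, DTX3L and USP18), while 7.51% of all genes were called higher and 8.25% lower. The median change over the 41 genes was -0.16, and 27 of the 41 changes were negative. Over all genes the median was 0.01. On 10 genes all siRNA arrays lay below all scramble arrays and on 1 above, against 13.2% and 13.0% of all genes. Both siRNAs were compared with the same 3 scramble arrays, so that their changes against scramble are not independent of each other.

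GBP1 read 4.46, 4.80 and 4.35 with Stat3 siRNA, against 4.99, 5.36 and 5.78 with scramble. It fell by 0.84 (SE 0.18, limma adjusted p = 0.0034), with no overlap. BST2 read 4.75, 4.87 and 5.09, against 5.78, 5.79 and 5.27 (-0.71 ± 0.17, adjusted p = 0.0082). DTX3L, with 7.62, 7.81 and 7.43, against 8.17, 8.18 and 8.19, fell by 0.56 (SE 0.11, adjusted p = 0.0025). USP18 read 8.18, 8.22 and 8.04, against 8.65, 8.62 and 8.55 (-0.46 ± 0.08, adjusted p = 0.00084). For DTX3L and USP18 the direction with Stat3 siRNA was opposite to that with Stat5a/b siRNA, and the same held for MX2. MX2 read 4.42, 4.99 and 4.37, against 5.14, 5.18 and 5.28 (-0.61 ± 0.20, adjusted p = 0.049), and its call held in 4 of 14 alternatives. TRIM14 read 9.50, 9.37 and 9.30, against 8.84, 8.82 and 8.95, a rise of 0.52 ± 0.06 (adjusted p = 2.8e-05).

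Same-numbered Stat3 and scramble arrays of DU145 deviated together from their group means over all genes (correlations 0.20, 0.16 and 0.33). In a blocked fit, with the replicate number as a term, 13 effector genes were called lower and 1 higher, against 9.64% and 8.73% of all genes. The 13 were the 5 above and IFIT1, SAMD9, MX1, GBP2, ISG15, IRF7, SP110 and IFI44. Their log2 changes ran from -0.84 for GBP1 to -0.29 for ISG15; MX1, at -0.65, had a blocked limma adjusted p of 0.0012, against 0.072 without the block. Without the replicate 3 arrays of DU145, 6 effector genes were called lower and 1 higher, while 1458 of all 19775 genes were called lower and 1439 higher. Without Stat3 replicate 2 alone 9 effector genes were called lower.

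Set directly against Stat3 siRNA in DU145, Stat5a/b siRNA gave higher levels of 32 of the 41 genes and lower levels of 2, while 11.0% of all genes were called higher and 11.2% lower. The median difference was 0.83. MX1 stood 2.55 ± 0.23 higher (limma adjusted p = 9.5e-07), CMPK2 2.59 ± 0.14, IFI44 2.04 ± 0.22 and MX2 2.02 ± 0.20. BST2 (0.68 ± 0.17), GBP1 (0.56 ± 0.18), HERC6 (0.67 ± 0.15), IFI35 (0.50 ± 0.14) and IFITM1 (1.19 ± 0.28) were called here and not between Stat5a/b siRNA and scramble. For BST2 and GBP1 the Stat3 arrays lay below scramble. These calls held in 14 of 14 alternatives for BST2, 8 of 14 for GBP1, 14 of 15 for HERC6, 11 of 15 for IFI35 and 14 of 15 for IFITM1. Without Stat5a/b replicate 3, IFITM1 (1.28, limma adjusted p = 3.5e-05), IFI35 (0.60, adjusted p = 0.00074) and HERC6 (0.50, adjusted p = 0.029) were called higher against scramble as well. ISG20, with 7.82, 7.81 and 7.38 with Stat5a/b siRNA, against 8.58, 8.55 and 8.23 with Stat3 siRNA, was lower (-0.78 ± 0.12), and so was GBP2 (-0.44 ± 0.14). Without the replicate 3 arrays of DU145 the counts were 32 higher and 1 lower.

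**Figure D4:**
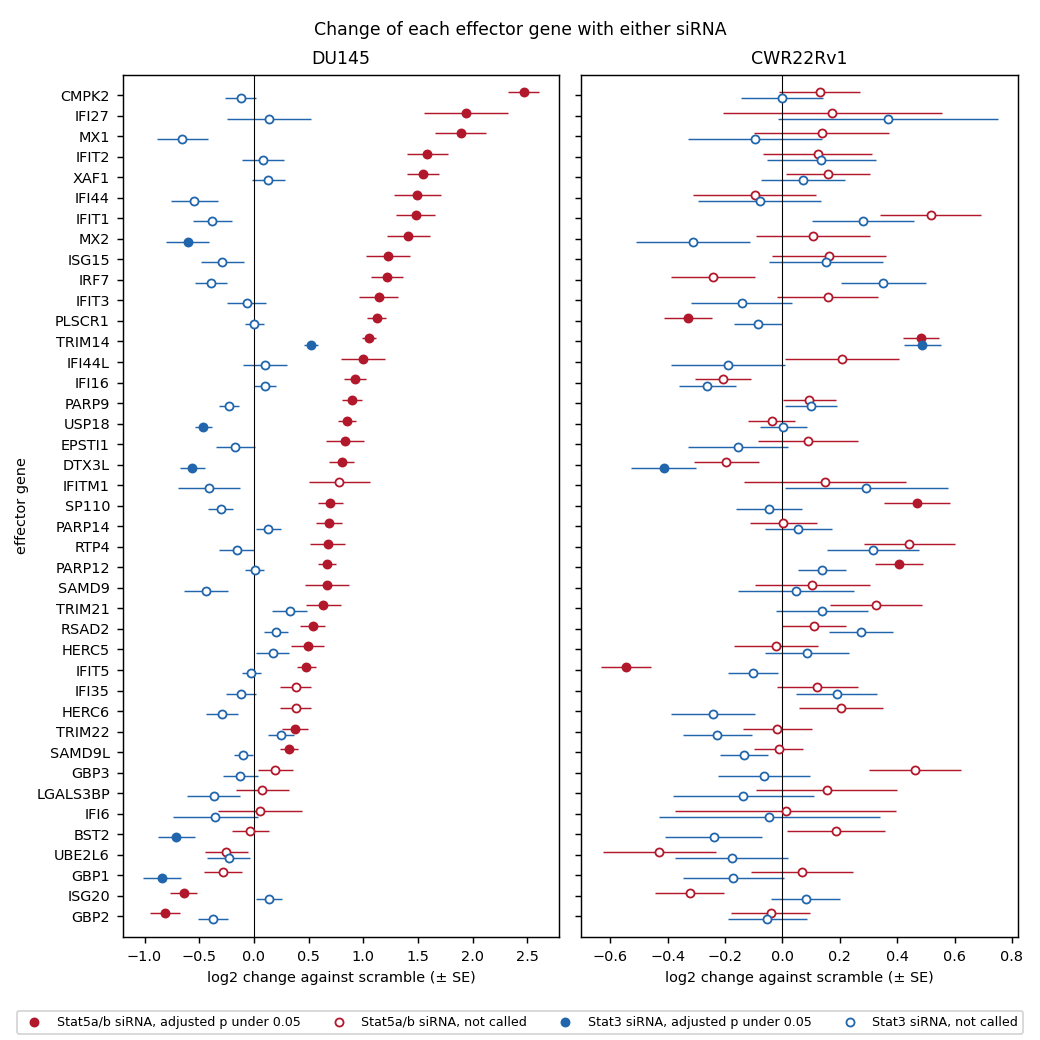
Log2 change against scramble (points) with its standard error (bars) for each effector gene, with Stat5a/b siRNA in red and Stat3 siRNA in blue, filled where the adjusted p was under 0.05. The panels for DU145 and CWR22Rv1 have different axis ranges. In DU145 30 genes are called higher with Stat5a/b siRNA and 5 lower with Stat3 siRNA, and in CWR22Rv1 7 points are filled in all.

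In CWR22Rv1, Stat5a/b siRNA was followed by few called changes. TRIM14, PARP12 and SP110 were called higher and IFIT5 and PLSCR1 lower, while 3.16% of all genes were called higher and 3.30% lower. The median over the 41 genes was 0.11. All siRNA arrays lay above all scramble arrays for 11 genes and below for 5, against 17.3% and 13.8% of all genes. TRIM14 read 9.67, 9.62 and 9.61 with the siRNA, against 9.18, 9.14 and 9.13 with scramble (0.48 ± 0.06, limma adjusted p = 0.00017). PARP12 read 6.45, 6.42 and 6.54, against 5.93, 6.25 and 6.01 (0.41 ± 0.08, adjusted p = 0.0073), and SP110 7.28, 7.29 and 7.23, against 6.93, 6.74 and 6.73 (0.47 ± 0.12, adjusted p = 0.021). These 3 genes rose in DU145 as well. IFIT5 read 5.81, 5.86 and 5.78, against 6.48, 6.20 and 6.40 (-0.55 ± 0.09, adjusted p = 0.00098), and PLSCR1 8.03, 8.03 and 7.90, against 8.40, 8.28 and 8.27 (-0.33 ± 0.08, adjusted p = 0.027). Both of them had risen in DU145. A second IFIT5 probe set gave 0.04 ± 0.17 in CWR22Rv1, and with the mean of both the change was -0.25 (adjusted p = 0.27). Other PLSCR1 probe sets gave -0.27 ± 0.10 and -0.02 ± 0.12, neither called. Leaving out any 1 array of either group left 1 gene called lower, and TRIM14 alone held its call under every alternative that tested it. IFIT1 read 3.68, 4.21 and 3.95, against 3.43, 3.37 and 3.48, and was not called (0.52 ± 0.18, adjusted p = 0.11).

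With Stat3 siRNA in CWR22Rv1, TRIM14 was called higher and DTX3L lower, against 2.75% and 2.02% of all genes. The median over the 41 genes was -0.05, and arrays lay apart from scramble for 9 genes above and 6 below, against 17.5% and 14.9% of all genes. TRIM14 read 9.66, 9.58 and 9.68, against 9.18, 9.14 and 9.13 (0.49 ± 0.06, limma adjusted p = 0.00031). DTX3L read 8.21, 8.14 and 8.17, against 8.58, 8.56 and 8.62 (-0.41 ± 0.11, adjusted p = 0.048). Its arrays did not overlap, but the call was lost when any 1 of the 6 arrays was left out. TRIM14 has 4 further probe sets, and in CWR22Rv1 0 of them were called with either siRNA (-0.03 to 0.26 with Stat5a/b siRNA and 0.03 to 0.37 with Stat3 siRNA).

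Between Stat5a/b and Stat3 siRNA in CWR22Rv1, GBP3 and SP110 were called higher and IFIT5, ISG20 and IRF7 lower, against 4.70% and 6.05% of all genes. IRF7 read 6.20, 6.21 and 5.91 with Stat5a/b siRNA, against 6.65, 6.70 and 6.75 with Stat3 siRNA (-0.59 ± 0.15, limma adjusted p = 0.015). GBP3 read 3.16, 3.36 and 3.32, against 2.41, 2.85 and 3.00 (0.53 ± 0.16). ISG20 read 7.76, 7.72 and 7.69, against 8.07, 8.15 and 8.17 (-0.41 ± 0.12, adjusted p = 0.04). It was thus below its Stat3 arrays in both lines. IRF7 stood on opposite sides in the lines, at 1.61 ± 0.15 in DU145. The calls in CWR22Rv1 held in 14 of 14 alternatives for SP110, 13 of 14 for IFIT5, 12 of 14 for IRF7, 6 of 14 for ISG20 and 5 of 13 for GBP3. With the mean of all probe sets IFIT5 gave -0.05 (adjusted p = 0.83), and without Stat3 replicate 1 GBP3 gave 0.35 (adjusted p = 0.22).

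Counted over the comparisons of each siRNA with scramble, 22 of the 41 genes were called once only, in DU145 with Stat5a/b siRNA, and higher. TRIM14 was called higher in all 4 comparisons. In DU145, Stat5a/b siRNA gave a higher call for DTX3L, which was called lower with Stat3 siRNA in both lines. The 7 genes called in none were GBP3, HERC6, IFI35, IFI6, IFITM1, LGALS3BP and UBE2L6. These counts compare thresholds and not the lines. How many of all genes had the same patterns was not counted. With Stat5a/b siRNA 11.8% of all genes were called higher in DU145, against 3.16% in CWR22Rv1.

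The difference between the lines was tested as an interaction. The Stat5a/b effect was higher in DU145 than in CWR22Rv1 for 19 of the 41 genes and lower for 1, while 5.17% of all genes were called higher and 6.75% lower. The median difference was 0.64. For CMPK2 the effects were 2.47 in DU145 and 0.13 in CWR22Rv1, a difference of 2.34 ± 0.20 (limma adjusted p = 7.8e-06). For PLSCR1 they were 1.12 and -0.33 (1.45 ± 0.12, adjusted p = 4.2e-06), and for IRF7 1.22 and -0.24 (1.46 ± 0.21, adjusted p = 0.00038). TRIM14, which rose in both lines, rose by 0.57 ± 0.09 more in DU145. GBP2 was the gene with a lower effect in DU145 (-0.77 ± 0.19, adjusted p = 0.017). PARP12 (0.26 ± 0.12) and SP110 (0.23 ± 0.16), which rose in both lines, were not called. STAT5B itself fell further in DU145 (-0.45 ± 0.13, adjusted p = 0.031). The part of knockdown depth in the difference was not tested. Without the replicate 3 arrays of DU145, 23 effector genes were called higher, among them all 19, and 2 lower. How many of all genes were called in that setting is not given here.

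For Stat3 siRNA the difference between the lines was called for USP18 alone, with a lower effect in DU145 (-0.46 ± 0.11, limma adjusted p = 0.04), while 1.18% of all genes were called higher and 1.82% lower. The effects were -0.46 in DU145 and 0 in CWR22Rv1. STAT3 fell further in DU145 as well (-0.49 ± 0.13, adjusted p = 0.049). Leaving out single arrays gave between 0 and 2 genes called lower, and leaving out the replicate 3 arrays of DU145 gave 3. In the blocked fit 4 genes were called lower: USP18 (-0.46, limma adjusted p = 0.02), IFIT1 (-0.66, adjusted p = 0.042), ISG15 (-0.44, adjusted p = 0.02) and IRF7 (-0.75, adjusted p = 0.015), while 1.76% of all genes were called higher and 2.81% lower.

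The lines differed widely before any knockdown. With scramble siRNA, 8 of the 41 genes were higher and 28 lower in CWR22Rv1 than in DU145, while 30.0% of all genes were called higher and 27.0% lower. The median difference was -1.10, against 0.03 over all genes. All CWR22Rv1 arrays lay below all DU145 arrays for 29 genes and above for 9, against 29.5% and 34.0% of all genes. With the replicate 3 arrays of DU145 left out, 8 genes were called higher and 29 lower, among them all 28 and ISG20 (-0.37, limma adjusted p = 0.00011). IFIT1 read 3.43, 3.37 and 3.48 in CWR22Rv1, against 9.49, 9.44 and 9.03 in DU145. This was 1.68% of the DU145 level (-5.89 ± 0.18, limma adjusted p = 2.0e-14). IFI6 stood at 2.89%, HERC5 at 4.50%, SAMD9 at 5.36% and LGALS3BP at 5.40%, and 15 genes were at least 4-fold lower. CMPK2 was the opposite case, with 7.44, 7.34 and 7.39 in CWR22Rv1, against 3.94, 4.01 and 4.68 in DU145 (3.18 ± 0.14, 9.04-fold). IFITM1 (1.66 ± 0.28), EPSTI1 (1.30 ± 0.17), PARP9 (0.96 ± 0.09) and BST2 (0.85 ± 0.17) were higher in CWR22Rv1 too. ISG15 differed little, with 11.36, 11.40 and 11.33, against 11.23, 11.26 and 10.75 (0.28 ± 0.20, adjusted p = 0.25). STAT3 read 8.16% of its DU145 level in CWR22Rv1 (-3.62 ± 0.09). Of 14 interferon receptor and signalling genes, 9 were called lower and 2 higher in CWR22Rv1, and JAK1 averaged 5.49, against 9.61 in DU145. Each line is a single model, so that the cell line and whatever else differed between these arrays cannot be told apart, and without detection calls it is unknown which low genes were expressed at all. With Stat5a/b siRNA the CMPK2 level of DU145 (6.68 ± 0.15) stayed below that of CWR22Rv1 with scramble (7.39 ± 0.05, SD, n = 3 each).

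**Figure D5:**
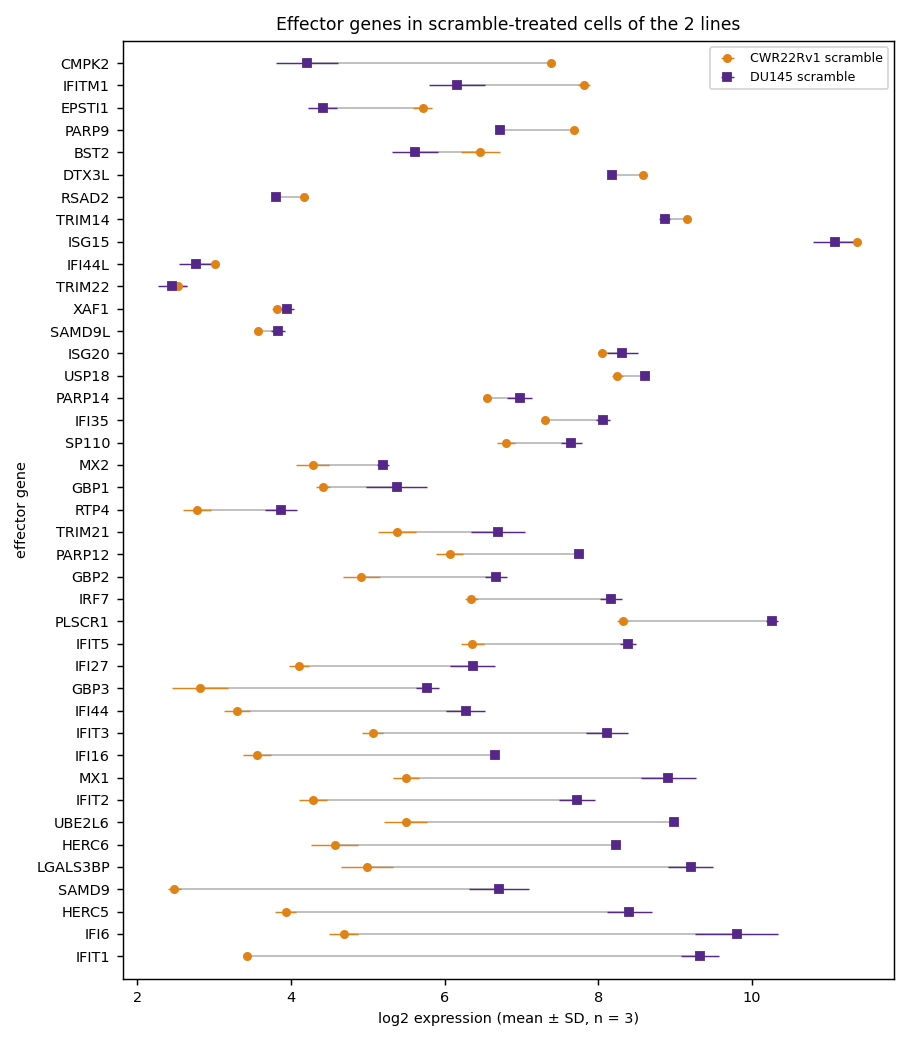
Mean log2 expression (points) with SD (bars, n = 3) of each effector gene in scramble-treated CWR22Rv1 (orange) and DU145 (purple), ordered by the difference. CMPK2 at the top is 3.18 higher in CWR22Rv1, and IFIT1 at the bottom is 5.89 lower.

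Further genes of the pathway were taken from lists chosen by role. Of 18 interferon genes on the array, 0 were called by limma with Stat5a/b siRNA in DU145, and 0 had an unadjusted p under 0.05 (range of changes -0.22 to 0.28), while 11.8% of all genes were called higher and 12.5% lower. When the replicate 3 arrays of DU145 were left out, IFNA17 (0.59 ± 0.11, limma adjusted p = 0.0016) and IFNA21 (0.44 ± 0.10, adjusted p = 0.007) were called higher and IFNW1 lower (-0.29 ± 0.10, adjusted p = 0.045). In that setting 2718 of 19775 genes were called higher and 2488 lower. All 18 interferon genes read below the array medians, the lowest of which was 5.156. Without detection calls it is unknown which of these genes were expressed. The calls therefore do not show expression of interferon genes, and the lack of calls does not show its absence. With Stat3 siRNA in DU145, 1 of them, IFNB1, was called higher (4.13, 4.07 and 3.97, against 3.80, 3.24 and 3.72 with scramble, 0.47 ± 0.14, limma adjusted p = 0.029), against 7.51% of all genes called higher and 8.25% lower. Of 14 receptor and signalling genes, 2 were called higher and 5 lower with Stat5a/b siRNA in DU145, against the same 11.8% and 12.5% of all genes, and these 7 calls held without the replicate 3 arrays. IRF9, the DNA-binding subunit named above, read 10.16, 10.22 and 9.97, against 9.06, 9.11 and 8.996 (1.06 ± 0.08, adjusted p = 7.3e-08). IFNAR1, a chain of the type I receptor, read 6.62, 6.44 and 6.60, against 7.66, 7.73 and 7.93 (-1.22 ± 0.08, adjusted p = 2.1e-08). The receptor chain IFNAR2 (-0.29 ± 0.06) and the kinases JAK1 (-0.29 ± 0.06) and TYK2 (-0.27 ± 0.07) were also called lower. In CWR22Rv1 IFNAR1 fell as well (-0.62 ± 0.08, adjusted p = 0.0001), and IRF9 was not called. With Stat3 siRNA in DU145, 4 of the 14 were called higher, among them IFNAR1 (0.47 ± 0.08), IFNAR2 (0.32 ± 0.06) and JAK1 (0.31 ± 0.06), and 2 lower, among them the interferon gamma receptor chain IFNGR1 (-0.55 ± 0.07). The counts were 4 and 1 without the replicate 3 arrays.

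Of 14 sensors and RNA-activated enzymes, 5 were called higher and 2 lower with Stat5a/b siRNA in DU145, against 11.8% and 12.5% of all genes. Leaving out the replicate 3 arrays of DU145 gave 7 called higher, among them the 5, and the same 2 lower. In that setting 2718 of all 19775 genes were called higher and 2488 lower. OAS1, which makes the messenger that activates RNase L, read 7.03, 7.43 and 6.55, against 5.76, 6.04 and 4.65 with scramble (1.52 ± 0.27, limma adjusted p = 0.00068). OAS3 (1.03 ± 0.15), the RNA sensors IFIH1 (0.62 ± 0.12) and RIGI (0.46 ± 0.11) and the RNA editor ADAR (0.20 ± 0.06) were the others. STING1, the adaptor of DNA sensing, read 7.25, 7.26 and 6.97, against 8.34, 8.16 and 7.88 (-0.97 ± 0.25, adjusted p = 0.0083). STING1 was also the 1 of these 14 called lower with Stat3 siRNA (-0.81 ± 0.25), against 8.25% of all genes. That call was lost without the replicate 3 arrays (-0.88 ± 0.32, adjusted p = 0.089), and OAS1 (-0.79 ± 0.17) and OAS3 (-0.30 ± 0.07) were called lower instead. In CWR22Rv1 0 of the 14 were called by limma with Stat5a/b siRNA, while 3.16% of all genes were called higher and 3.30% lower. Of the 14, 2 had an unadjusted p under 0.05.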

How the data were processed

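The values are the authors' deposited log2 expression values for 54675 Affymetrix probe sets on 18 arrays; RMA and limma are named, with no version, per the submitters' processing notes. Array medians lay between 5.156 and 5.198. Detection calls were not used here, so how far a value stands above background is unknown, and the number of arrays limits the precision. Probe sets were named from the platform annotation: 41091 had 1 gene symbol, 1801 several, 11721 none and 62 were controls. For 10523 of 19775 genes, 19 of the 41 members among them, several probe sets existed, and the one of highest mean over the 18 arrays was chosen.

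A model with 6 group means was fitted to all genes with limma 3.58.1 in R 4.3.3 (lmFit and eBayes, 12 residual degrees of freedom), with two-sided p adjusted by Benjamini-Hochberg within each of 9 comparisons and called under 0.05. Members, gene lists and tests were chosen with earlier results of these data known. Members called in any siRNA comparison were named, with array values for the 3 of smallest adjusted p in each role group; members shown beyond this rule, and uncalled ones, were picked after their values were seen. Other lists were planned to name at most 6 genes, and the class I and other interferon-stimulated lists name more. The replicate number is used as a block beside the Stat3 result in DU145, because every same-numbered pair there correlated above 0.1; the labels do not say what a number shares. Alternatives covered the probe set rule, a filter on low values, normalisation, the fit and left-out arrays.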

Additional observations from a re-analysis of the deposited data

Results flagged for a closer look

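For 20 of the 41 effector genes the Stat5a/b siRNA effect differed between the cell lines in a test of the difference itself (DU145 minus CWR22Rv1, limma, ± SE). Among RNA and nucleotide proteins the differences were 0.96 ± 0.25 for IFIT1 (effects 1.48 and 0.52), 1.46 ± 0.27 for IFIT2, 0.98 ± 0.25 for IFIT3, 1.02 ± 0.12 for IFIT5 (effects 0.48 and -0.55) and 2.34 ± 0.20 for CMPK2. Among GTPases they were 1.76 ± 0.33 for MX1, 1.31 ± 0.28 for MX2 and -0.77 ± 0.19 for GBP2. Membrane proteins gave 1.76 ± 0.54 for IFI27, with an adjusted p of 0.0449, and 1.45 ± 0.12 for PLSCR1. ISG15 differed by 1.06 ± 0.28 and USP18 by 0.89 ± 0.11. For ADP-ribosylation genes the values were 0.80 ± 0.13 for PARP9, 0.69 ± 0.17 for PARP14 and 1.00 ± 0.16 for DTX3L. TRIM14, which rose in both lines, differed by 0.57 ± 0.09. Nuclear and other proteins gave 1.46 ± 0.21 for IRF7, 1.13 ± 0.14 for IFI16, 1.38 ± 0.21 for XAF1 and 1.59 ± 0.30 for IFI44. The calls of IFIT1, IFI27, ISG15 and PARP14 were lost under at least 1 alternative. For Stat3 siRNA the difference was called for USP18 alone (-0.46 ± 0.11, effects -0.46 and 0), and this call was lost under at least 1 alternative, while in the blocked fit IFIT1 (-0.66), ISG15 (-0.44) and IRF7 (-0.75) were called too. Groups of 3 arrays were not tested for single outlying arrays.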

How the results depend on the processing

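No gene reversed its direction where called: of 5601 results for single genes under an alternative, 5347 kept their side of the threshold, 126 gained a call and 128 lost one. The values below count effector genes called higher or lower, and the cause of a change was not tested unless stated. Leaving out single arrays gave 27 to 32 higher and 2 lower for Stat5a/b siRNA in DU145, 1 to 2 higher and 4 to 9 lower for Stat3 siRNA in DU145, 2 to 3 higher and 1 lower for Stat5a/b siRNA in CWR22Rv1, and 1 higher and 0 lower for Stat3 siRNA in CWR22Rv1. Without DU145 scramble replicate 2 or Stat3 replicate 1, 2 were higher with Stat3 siRNA, and without Stat3 replicate 2, 9 were lower. Between the siRNAs it gave 29 to 33 higher and 1 to 2 lower in DU145, and 1 to 3 higher and 1 to 2 lower in CWR22Rv1. For the line difference it gave 17 to 24 higher and 1 lower with Stat5a/b siRNA and 0 higher and 0 to 2 lower with Stat3 siRNA, and for the scramble cells 8 higher and 27 to 29 lower. With the mean of all probe sets of a gene, Stat3 siRNA gave 2 higher in DU145 and 2 higher and 0 lower in CWR22Rv1, Stat5a/b siRNA gave 0 lower in CWR22Rv1, Stat5a/b against Stat3 siRNA gave 1 lower in DU145, and 2 were lower for either line difference. Keeping only genes at or above the median level tests fewer genes and drops effector genes below it, among them CMPK2, MX2 and XAF1. Counts under this filter thus have a smaller base, and a lower count there is not by itself a loss of calls. With it, Stat5a/b siRNA in DU145 gave 17 higher and 1 lower, against scramble and likewise against Stat3 siRNA. IFITM1, HERC6 and IFI35 gained a call against scramble. The Stat5a/b line difference had 12 higher and 0 lower, and that of Stat3 siRNA 2 lower. In scramble-treated CWR22Rv1, 4 were higher and 16 lower. Quantile normalisation and cyclic loess each left 0 lower for the Stat3 line difference, and cyclic loess left 1 lower with Stat5a/b siRNA and 0 lower with Stat3 siRNA in CWR22Rv1. With each line fitted alone, which gives no value between lines, CWR22Rv1 had 5 higher and 4 lower with Stat5a/b siRNA, 4 higher with Stat3 siRNA and 5 higher between them. Array weights gave in CWR22Rv1 5 higher with Stat5a/b siRNA, 3 higher and 2 lower with Stat3 siRNA and 4 higher between them, with 1 lower between the siRNAs in DU145 and 2 lower for the Stat3 line difference. An intensity trend in eBayes also gave 2 lower for that difference. With the replicate block, 13 were lower with Stat3 siRNA in DU145, 5 higher with Stat5a/b siRNA in CWR22Rv1, 2 lower for the Stat5a/b line difference and 4 lower for that of Stat3 siRNA. No other count moved by over 1.5 times under the block. Leaving out the replicate 3 arrays of DU145, chosen after seeing the data, gave 1 lower between the siRNAs in DU145, and 2 lower for the Stat5a/b and 3 lower for the Stat3 line difference. For the further lists in DU145 it gave 2 higher and 1 lower interferon gene and 2 lower other interferon-stimulated genes with Stat5a/b siRNA, and with Stat3 siRNA 1 lower receptor or signalling gene, 2 lower sensors and 2 higher other interferon-stimulated genes. Other same-numbered pairs did not all correlate above 0.1. Low levels have an unknown distance to background.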

Other observations

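Class I presentation genes, which cut and load peptides for display to T cells, had 4 of 15 members called higher and 2 lower by limma in DU145 cells given Stat5a/b siRNA, while 11.8% of all genes were called higher and 12.5% lower. The counts were the same without the replicate 3 arrays of DU145, but ERAP1 lost its call and PSMB9 gained one (0.31 ± 0.08). The peptide transporter subunit TAP2 (0.39 ± 0.07), the proteasome activator subunit PSME1 (0.29 ± 0.06), the peptide trimmer ERAP1 (0.28 ± 0.09) and HLA-E (0.24 ± 0.08) were higher. The trimmer ERAP2 (-0.67 ± 0.11) and the immunoproteasome subunit PSMB10 (-0.51 ± 0.08) were lower. With Stat3 siRNA in DU145, ERAP1 was higher (0.85) and PSMB10 lower (-0.42). Of 37 genes on a list of other interferon-stimulated genes, 17 were called higher and 1 lower after Stat5a/b knockdown in DU145. IFIH1 is 1 of these 17 and was also counted with the sensors above. Leaving out the replicate 3 arrays gave 21 higher, among them the 17, and 2 lower. In that setting 2718 of all 19775 genes were called higher and 2488 lower. The helicase DDX60 (1.36 ± 0.22), HELZ2 (1.22 ± 0.10), DDX60L (1.02 ± 0.20), SHFL (0.87 ± 0.16), which blocks ribosomal frameshifting, and the tryptophan tRNA ligase WARS1 (0.59 ± 0.06) were among the higher ones. The death ligand TNFSF10 was lower (-0.51 ± 0.16).

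Some effector genes lie next to each other in the genome, in 10 pairs. With Stat5a/b siRNA in DU145 the changes of neighbours were 2.47 and 0.54 for CMPK2 and RSAD2, 1.41 and 1.89 for MX2 and MX1, and 0.90 and 0.80 for PARP9 and DTX3L, whose promoter windows hold the same ISRE match. With Stat3 siRNA PARP9 and DTX3L gave -0.22 and -0.56, and MX2 and MX1 -0.61 and -0.65. Of these, DTX3L and MX2 were called in the fit without a block. Other neighbours had changes of opposite sign, none of them called in the fit without a block. They were 0.20 and -0.28 for GBP3 and GBP1 after Stat5a/b knockdown in DU145. After Stat3 knockdown they were 0.10 and -0.55 for IFI44L and IFI44, -0.29 and 0.17 for HERC6 and HERC5, 0.08 and -0.07 for IFIT2 and IFIT3 and -0.12 and 0.20 for CMPK2 and RSAD2.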
